A study of Homo sapiens with 6 samples.

Results

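The genes described here handle glutamine and the glutamate made from it: GLUL, GLS2, SLC1A5, SLC7A5, SLC38A1, SLC38A2, GLUD1, GOT1 and GOT2. They are 9 of the 62703 genes listed for PANC-1, an established human pancreatic ductal cancer cell line. They were selected on their measured values in the comparison given below, together with their known roles, so their levels and differences are a description and no p-value is given for them. All 9 were among the 15179 genes that passed the filter on low counts.

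The study compared WT PANC-1 cells (DKK1-SE+/+) with DKK1-SE-KO cells (DKK1-SE-/-), in which CRISPR/Cas9 had removed the component enhancer e1 of a super-enhancer of DKK1 from both alleles. Each genotype had 3 biological replicates, grown in DMEM with serum, and RNA was sequenced from stranded mRNA libraries. The edited cells came from 1 clone, so the deletion and other features of that clone cannot be told apart. Total expected counts per library ran from 16475810 to 21822314, and levels are given as TPM, a unit scaled for gene length and for the library's total. DKK1, which checks the labels, stood at 229, 246 and 199 TPM in WT and at 66.8, 79.8 and 82.7 TPM in DKK1-SE-KO, and no DKK1-SE-KO library reached the WT range.

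Glutamine is the most abundant free amino acid in blood and in culture medium, and it feeds nitrogen into nucleotides, amino sugars and other amino acids. Carriers of the SLC1, SLC7 and SLC38 families bring it in or exchange it, glutaminases split it to glutamate and ammonia, and glutamate dehydrogenase or transaminases pass the carbon on to the citric acid cycle. Glutamine synthetase, the product of GLUL, runs the opposite way and makes glutamine from glutamate and ammonia. Pancreatic cancer cells are known for a route in which GOT2 makes aspartate in mitochondria and GOT1 turns it to oxaloacetate in the cytosol.

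The markers of the cell type were present. KRT8, KRT18, KRT19, SOX9 and VIM were expressed in every library, and the summed TPM of the 7 markers of the line was 5647, 6164 and 6515 in WT and 6011, 5662 and 5408 in DKK1-SE-KO. VIM, known as a mesenchymal marker that PANC-1 also expresses, was the most abundant. Without it the 6 ductal or epithelial markers summed to 1901, 1954 and 1993 TPM in WT and 3192, 3128 and 2708 TPM in DKK1-SE-KO, so the sum of all 7 covers opposite changes. KRT19, a keratin of ductal cells, rose from 53.9 ± 5.79 to 172 ± 25.9 TPM (SD, n = 3), and KRT8 and KRT18, which overlap each other on opposite strands, rose by log2 fold changes of 0.86 and 0.67. VIM, the gene for vimentin, fell from 4159 ± 390 to 2684 ± 143 TPM, and SOX9 and EPCAM fell by 0.39 and 0.67 on the log2 scale, calls lost in 4 and 10 of 15 refits with another choice of processing or without a library. KRT7 had a log2 fold change of 0.47 and passed the test only without DKK1-SE-KO replicate 3. EPCAM was low, at 1.70 to 4.81 TPM. GLUL is known as a marker of astrocytes and pericentral hepatocytes, and the defining markers of both were at or near 0. The 4 astrocyte markers summed to 0.03, 0, 0.08 TPM in WT and 0.43, 0.23, 0.58 TPM in DKK1-SE-KO; GFAP was the most abundant, and AQP4 and S100B were at 0 in every library. The 4 hepatocyte markers summed to at most 0.43 TPM, with CYP2E1 the most abundant and ALB at 0. Of the 3 leukocyte markers CD68 was the most abundant, at 40.9 to 46.5 TPM in WT and 64.8 to 67.9 TPM in DKK1-SE-KO, while PTPRC and CD3E did not pass 0.06 TPM. The 6 acinar, 4 endocrine, 3 fibroblast and 3 endothelial markers each stayed under 1 TPM in every library. The part of these markers in the results was not tested. In such bulk samples, fewer cells with a transcript and less of it per cell cannot be told apart.

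GLUL, the gene for glutamine synthesis, was nearly silent in WT and clearly expressed in DKK1-SE-KO. It stood at 0.52, 0.28 and 0.97 TPM in WT and at 12.3, 11.0 and 10.8 TPM in DKK1-SE-KO, from 19, 4 and 16 counts against 266, 284 and 228 counts. Every DKK1-SE-KO library lay above every WT library, and the replicates of DKK1-SE-KO were close to each other. The log2 fold change of DKK1-SE-KO over WT in edgeR was 4.44 ± 0.29 (SE, n = 3 and 3), a 21.8-fold difference. Because the WT level rests on 39 reads in all, that fold is known less well than the level in DKK1-SE-KO. By mean TPM, GLUL ranked 13838 among the 15179 tested genes in WT and 6816 in DKK1-SE-KO.

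GLUL lies on chromosome 1 of hg38, on the minus strand, at chr1:182378098-182392206 in GENCODE. GLUL is ENSG00000135821, and no listed gene overlaps it. The table lists 6 pseudogene copies of GLUL; 4 had no count in any library and no copy had more than 5.58 counts in a library. In WT the copy ENSG00000254765 had 5.58, 0 and 2.61 counts beside the 19, 4 and 16 of GLUL, so reads shared with it could bear on the WT level and on the fold. In DKK1-SE-KO it had 0, 0.94 and 0 counts, few beside those of GLUL. Among the genes tested within 1 Mb of its start, RGS16, a regulator of G-protein signaling, rose (log2 fold change 3.15 ± 0.70 (SE), edgeR adjusted p = 0.005) from 0, 3 and 2 counts in WT to 19, 14 and 11 counts. With a mean of 0.252 TPM it was below the limit for the limma fits on TPM and was not tested there. NPL, DHX9 and LAMC1 did not pass the test, with log2 fold changes of 1.25, −0.25 and −0.21, but each did without DKK1-SE-KO replicate 3, NPL and LAMC1 also with the GC-content offset and LAMC1 with library size alone. The median within 1 Mb was 0.13. Over the 44 other genes tested within 5 Mb, a distance chosen after the values were seen, it was −0.17, with 6 called higher and 15 lower.

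**Figure D1:**
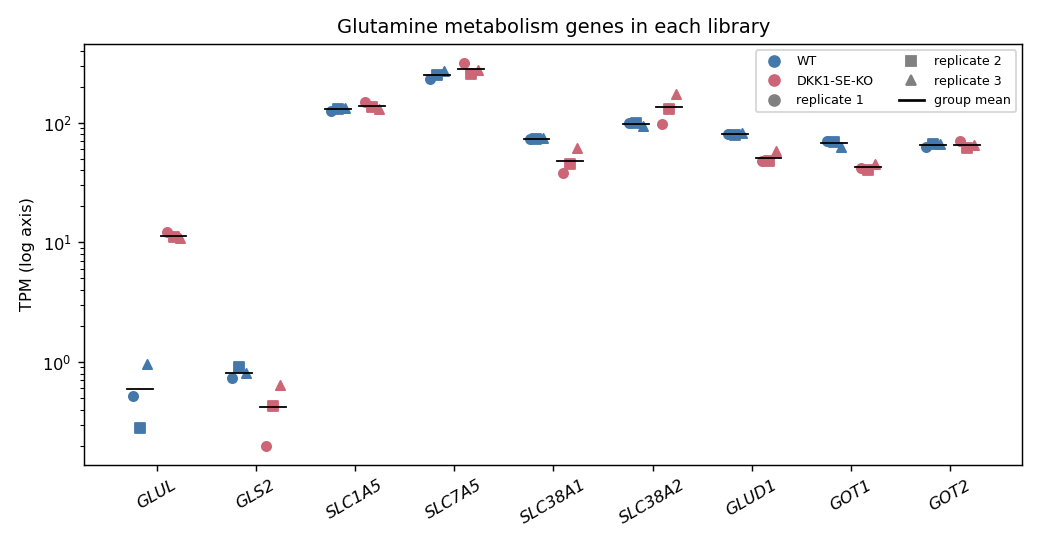
TPM of each gene on a log axis in the 3 WT and 3 DKK1-SE-KO libraries; symbols are replicates and bars are group means. GLUL lies between 0.28 and 0.97 TPM in WT and between 10.8 and 12.3 TPM in DKK1-SE-KO, while the other genes differ far less between genotypes.

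The genes whose profile was most like that of GLUL were found by the Euclidean distance over the 6 libraries of log2 CPM minus the WT mean. This measure takes genes with a difference as large as that of GLUL, so the size of their differences follows from the choice. COL2A1, a fibrillar collagen gene, was closest at a distance of 0.31, with 4, 0 and 4 counts in WT and 98, 81 and 75 counts in DKK1-SE-KO. ITGA11, an integrin subunit, had 3, 1 and 3 counts in WT and 79, 89 and 61 counts in DKK1-SE-KO at a distance of 0.76. DPYSL5, a dihydropyrimidinase-like gene, had 2, 0 and 0 counts against 46, 44.1 and 58 counts at a distance of 1.16. ENSG00000282697 and ENSG00000282501, at 0.74 and 1.07, are a pair of annotated CDYL pseudogenes on chromosome X, and reads may be split between such copies.

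In WT the levels of the 9 genes covered a wide range. SLC7A5 was highest at 251 ± 19.6 TPM (SD, n = 3), followed by SLC1A5 at 129 ± 4.80, SLC38A2 at 97.7 ± 3.62, GLUD1 at 80.4 ± 1.41 and SLC38A1 at 73.5 ± 1.13 TPM. GOT1 at 67.1 ± 4.34 and GOT2 at 65.2 ± 2.55 TPM overlapped each other, as did GLS2 at 0.813 ± 0.0850 and GLUL at 0.59 ± 0.35 TPM at the bottom. In DKK1-SE-KO the order was SLC7A5, SLC1A5, SLC38A2, GOT2, GLUD1, SLC38A1, GOT1, GLUL and GLS2. There SLC1A5 overlapped SLC38A2, GLUD1 overlapped SLC38A1, and SLC38A1 overlapped GOT1. GLUL was thus above GLS2 in each DKK1-SE-KO library.

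Of the 9 genes, 2 passed an adjusted p of 0.05 in the higher direction (GLUL and SLC38A2) and 3 in the lower (SLC38A1, GLUD1 and GOT1). Across all tested genes 39.3% passed, 19.8% higher and 19.5% lower, and since the genes were chosen on this contrast nothing is read from the count. SLC38A2 did not pass in either limma fit on TPM, and GLUD1 did not with the replicate block and the GC-content offset together. SLC7A5 passed as higher in DESeq2, with no filter on low counts and without DKK1-SE-KO replicate 3, and SLC1A5 only without that library. TPM did not overlap between genotypes for 5 of the 9, and for 44.2% of all tested genes. Only GLUL passed the stricter limit of an unadjusted p under 0.05 with a log2 difference of 1.2 or more in size, which 8.66% of tested genes passed.

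SLC38A1 and SLC38A2 encode sodium-coupled carriers of small neutral amino acids, and they differed in opposite directions. SLC38A1 stood at 73.5, 72.4 and 74.7 TPM in WT and 38.0, 45.5 and 61.0 TPM in DKK1-SE-KO. All 3 DKK1-SE-KO libraries were below WT, and replicate 3 was the nearest to it. SLC38A2 stood at 99.3, 100 and 93.6 TPM in WT and 97.4, 130 and 175 TPM in DKK1-SE-KO. Replicate 1 lay inside the WT range and the other DKK1-SE-KO libraries above it. The log2 fold changes were −0.58 ± 0.14 and 0.58 ± 0.14 (SE). Within each library the ratio of SLC38A2 to SLC38A1 TPM was 1.35, 1.38 and 1.25 in WT and 2.56, 2.85 and 2.86 in DKK1-SE-KO, and the groups did not overlap. This ratio and the others given here were chosen after the values were seen.

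SLC38A1 and SLC38A2 are neighbors on the minus strand of chromosome 12 (chr12:46183063-46270017 and chr12:46358188-46372773), 88.2 kb apart, with no listed gene between them. For that reason a promoter window of each is shown, with that of GOT1, which held the most motif matches. RefSeq promoter windows (GRCh38.p14) matched all 9 genes, with 13 windows in all, and the 250 bases before each start were searched on both strands for AP-1 (TGANTCA), TCF/LEF (CTTTGAT), C/EBP-ATF (TGATGNAA) and CCAAT letters. Capitals mark the letters found. The windows lie on the minus strand at chr12:46266517-46266766 for SLC38A1, chr12:46372774-46373023 for SLC38A2 and chr10:99430625-99430874 for GOT1, outside annotated exons. That of SLC38A1 lies inside the span given above for the gene, so it is not upstream of the whole annotated gene.
SLC38A1: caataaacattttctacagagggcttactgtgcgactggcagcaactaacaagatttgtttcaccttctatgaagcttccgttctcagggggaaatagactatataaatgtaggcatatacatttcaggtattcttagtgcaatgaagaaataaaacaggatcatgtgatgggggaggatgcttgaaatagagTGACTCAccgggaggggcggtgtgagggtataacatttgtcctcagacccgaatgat
SLC38A2: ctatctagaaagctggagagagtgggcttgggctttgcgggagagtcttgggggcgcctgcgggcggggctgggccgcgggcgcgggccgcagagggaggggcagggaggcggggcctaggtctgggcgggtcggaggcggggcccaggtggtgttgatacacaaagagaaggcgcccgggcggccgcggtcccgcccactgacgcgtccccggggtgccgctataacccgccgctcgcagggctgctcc
GOT1: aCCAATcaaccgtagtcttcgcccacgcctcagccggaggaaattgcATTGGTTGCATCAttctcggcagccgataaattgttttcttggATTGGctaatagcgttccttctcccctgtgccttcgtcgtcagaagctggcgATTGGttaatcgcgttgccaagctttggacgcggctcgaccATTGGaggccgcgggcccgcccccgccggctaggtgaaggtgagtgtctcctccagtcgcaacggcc

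The SLC38A1 window held 1 AP-1 match, found in 6.57% of 35116 windows of this length. SLC38A1 had another window without a match. The SLC38A2 window held none of the 4 motifs. The GOT1 window held 5 CCAAT matches, where 32% of windows held at least 1, and 1 C/EBP-ATF match, found in 3.14%. Both GLUL windows lacked AP-1, TCF/LEF and C/EBP-ATF letters, and 1 of them held 2 CCAAT matches, but both lie wholly inside annotated exons of GLUL, so they are not only upstream sequence. Windows of GLS2, SLC1A5 and GOT2 also overlap annotated exons. Of the SLC1A5 windows, 1 held a C/EBP-ATF match and another held a CCAAT match. TCF/LEF letters, present in 2.26% of windows, were in none of the 13. A match is a description of the letters and not a binding site.

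SLC1A5 and SLC7A5 differed little between genotypes. SLC1A5, the sodium-dependent neutral amino acid carrier that takes up glutamine, stood at 124, 130 and 134 TPM in WT and 148, 134 and 130 TPM in DKK1-SE-KO. SLC7A5, the light chain of the LAT1 exchanger, stood at 230, 252 and 270 TPM in WT and 315, 258 and 274 TPM in DKK1-SE-KO. The groups overlapped for both genes, with log2 fold changes of 0.22 ± 0.13 and 0.33 ± 0.12 (SE). With an offset for GC content per library the values were −0.02 and −0.002, so the sign for these genes depended on that choice. Without DKK1-SE-KO replicate 1 they were 0.09 and 0.18, and on log2(TPM + 1) 0.09 and 0.17. SLC3A2, the heavy chain that pairs with SLC7A5, rose from 172 ± 6.28 to 227 ± 5.00 TPM (SD, n = 3) with a log2 fold change of 0.55 (edgeR adjusted p = 0.00253). The ratio of SLC3A2 to SLC7A5 TPM was 0.660 to 0.717 in WT and 0.737 to 0.883 in DKK1-SE-KO.

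GLS2, the liver-type glutaminase, was near the limit of detection. It stood at 0.73, 0.90 and 0.81 TPM in WT and 0.20, 0.43 and 0.64 TPM in DKK1-SE-KO, from 20.4, 6 and 18.5 counts against 2, 10.3 and 11.3 counts. TPM did not overlap but the counts did, and the log2 fold change of −0.80 ± 0.56 (SE) did not pass the test. It ran from −1.18 without DKK1-SE-KO replicate 3 to −0.41 without DKK1-SE-KO replicate 1, and was −0.36 on log2(TPM + 1). SPRYD4 overlaps GLS2 on the other strand and had 242 to 391 counts per library, far more than GLS2. Reads of the overlap may be shared, as the use of strand in counting is not given. Such reads could bear on the level of GLS2 and on its difference, which was not tested.

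GLUD1 and GOT1 were lower in DKK1-SE-KO and GOT2 was about level. GLUD1, mitochondrial glutamate dehydrogenase, stood at 80.4, 79.0 and 81.9 TPM in WT and 48.0, 47.9 and 57.5 TPM in DKK1-SE-KO. GOT1, the cytosolic aspartate transaminase, stood at 70.4, 68.8 and 62.2 TPM in WT and 41.4, 40.5 and 44.9 TPM in DKK1-SE-KO. Neither gene overlapped between genotypes, and the log2 fold changes were −0.50 ± 0.09 and −0.59 ± 0.10 (SE). GOT2, the mitochondrial form, stood at 62.3, 66.4 and 66.9 TPM in WT and 69.9, 61.7 and 64.7 TPM in DKK1-SE-KO, with overlapping groups and a log2 fold change of 0.17 ± 0.11 (SE), which was 0.08 without DKK1-SE-KO replicate 1, 0.12 without WT replicate 1 and 0.0046 on log2(TPM + 1). The ratio of GOT2 to GOT1 TPM was 0.884 to 1.08 in WT and 1.44 to 1.69 in DKK1-SE-KO.

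GLUD1 (chr10:87050202-87094843) and GOT1 (chr10:99396870-99430624) both lie on chromosome 10, where lower values were common. The median log2 fold change of its 588 tested genes was −0.32, against 0.03 over all tested genes. Within 5 Mb of GLUD1 the median of 43 other tested genes was −0.87, with 24 called lower and 3 higher. Within 5 Mb of GOT1 the median of 99 was −0.45, with 44 called lower and 1 higher. Within 1 Mb the medians were −0.66 over 20 genes for GLUD1 and −0.70 over 15 for GOT1. GLUD1 was thus above the median of its surroundings at both distances, while GOT1 was below it at 5 Mb and above it at 1 Mb. Whether a feature of the chromosome played a part was not tested. SHLD2, which overlaps GLUD1 on the other strand, was also lower (log2 fold change −1.17). Whether the counting used strand is not given in the sources used here, so reads of the overlap may be shared. GLUD1P3, a transcribed copy of GLUD1, had 20 to 61 counts, 1.49% of those of GLUD1 over the 6 libraries. It was called higher in DKK1-SE-KO (log2 fold change 1.29), where GLUD1 was lower. GOT1-DT, a divergent transcript of GOT1, had 7 to 30 counts and SLC7A5P2 at most 36.4 counts. Around SLC1A5, SLC7A5 and GOT2 the 5 Mb medians were 0.25, 0.32 and 0.04, and around SLC38A1 and SLC38A2 they were 0.06 and 0.04. The 1 Mb medians were 0.43, 0.31 and −0.08 for SLC1A5, SLC7A5 and GOT2. Closer to SLC38A1 and SLC38A2 values were lower, with 1 Mb medians of −0.37 and −0.59 over 8 genes each, of which 3 and 4 were called lower and 2 and 1 higher. Both sets hold the same genes, except that each includes the other carrier gene, SLC38A2 as a higher call and SLC38A1 as a lower call.

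**Figure D2:**
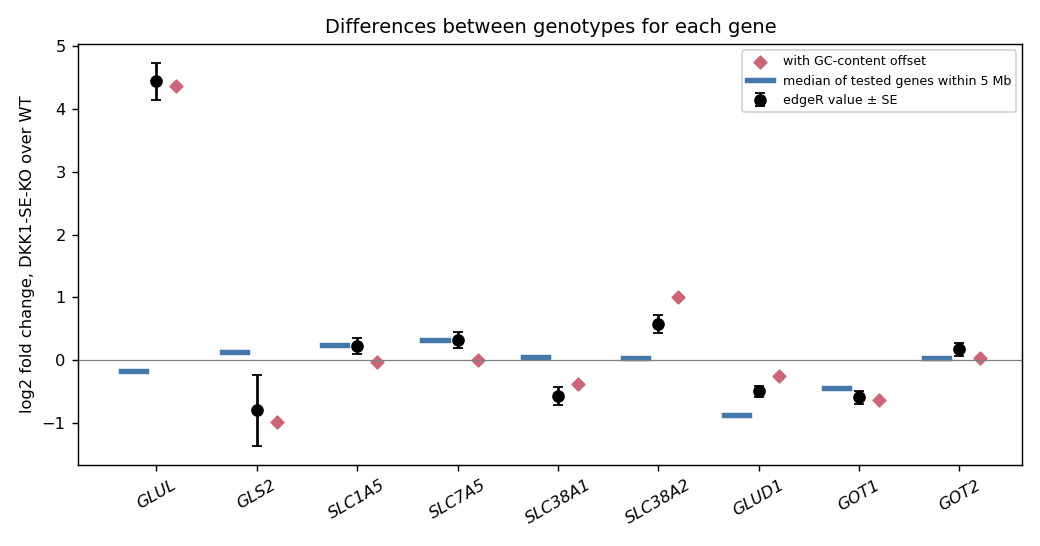
Log2 fold change of DKK1-SE-KO over WT for each gene with its SE (circles), the value with a GC-content offset (diamonds) and the median of tested genes within 5 Mb (bars). GLUL is at 4.44 and the median around it at −0.17. SLC1A5 and SLC7A5 lie near 0 with the offset, and GLUD1 moves from −0.50 to −0.25.

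Across tested genes the log2 fold change moved with GC content (Spearman rho 0.417 over 15167 genes, a description across genes, which are not independent replicates), and −0.01 after the offset. With the offset SLC38A2 was at 1.01, SLC38A1 at −0.38, GLUD1 at −0.25, GOT1 at −0.64 and GLUL at 4.37.

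**Figure D3:**
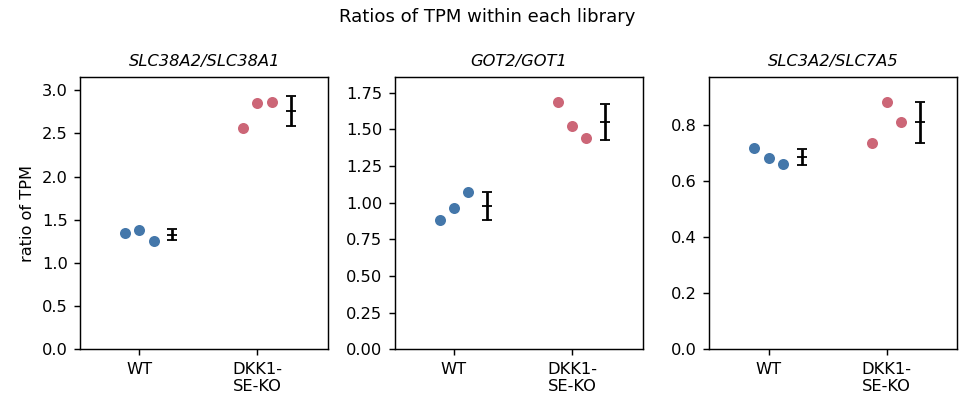
Ratios of TPM within each of the 3 WT and 3 DKK1-SE-KO libraries, with the mean and SD beside the points and axes starting at 0. The ratio of SLC38A2 to SLC38A1 is 1.25 to 1.38 in WT and 2.56 to 2.86 in DKK1-SE-KO, and no ratio overlaps between genotypes.

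The wider pathway was read from 8 lists of 105 other genes, of which 82 were tested. Among these 20 rose and 22 fell in edgeR, 51.2% of those tested beside 39.3% of all tested genes, and the median log2 fold change was −0.06 beside 0.03. Of the 42, 17 were called in the same direction in all 15 refits. Genes with a GO term holding the word glutamine, without the 9, gave 38 tested, 6 higher and 14 lower, with a median of −0.12; 19 of them are also in the lists.

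Among carriers at the plasma membrane and lysosome, 1 of 11 tested genes rose and 3 fell (median −0.02). Besides SLC3A2, SLC1A4, a neutral amino acid carrier, fell from 15.9 ± 1.73 to 5.68 ± 0.614 TPM (SD, n = 3), by 1.34 on the log2 scale (edgeR adjusted p = 2.84e-05). SLC6A15 fell by 2.24 and SLC38A4 by 2.36 on the log2 scale, both from low levels, and the call for SLC38A4 was lost in both limma fits. Of the 6 mitochondrial carriers 3 rose and 1 fell (median 0.36). SLC25A10, the dicarboxylate carrier, rose from 33.5 ± 3.39 to 49.2 ± 2.81 TPM (SD, n = 3), SLC25A22, a glutamate carrier, rose by a log2 fold change of 0.38, and SLC25A11, the oxoglutarate carrier, by 0.33. SLC25A12, an aspartate-glutamate carrier of the malate-aspartate shuttle, fell by 0.39 on the log2 scale. The calls for SLC25A11, SLC25A22 and SLC25A12 were lost in 13, 9 and 7 of the 15 refits, those with the GC offset included, and that for SLC25A10 in none of them.

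Of 18 tested genes for breakdown and transamination, 5 rose and 7 fell (median −0.27). BCAT1, the cytosolic branched-chain transaminase, fell from 35.5 ± 0.729 to 7.73 ± 0.50 TPM (SD, n = 3), by 2.38 on the log2 scale (edgeR adjusted p = 1.11e-06). MDH1, cytosolic malate dehydrogenase, fell from 184 ± 18.7 to 101 ± 14.0 TPM, and ME2, a mitochondrial malic enzyme, from 35.8 ± 1.75 to 22.9 ± 4.59 TPM. PSAT1, a transaminase of serine synthesis, fell by 0.47 on the log2 scale. NIT2, an omega-amidase, rose from 21.7 ± 1.92 to 35.9 ± 5.84 TPM, and ME1, the cytosolic malic enzyme, had a log2 fold change of 0.66. The call for ME2 was lost with the GC offset and without WT replicate 2, and that for ME1 in both limma fits. BCAT2 and OGDH were also called higher, and both calls were lost in 11 of the 15 refits. MDH2 did not pass the test at 156 ± 8.16 and 162 ± 10.8 TPM, except without DKK1-SE-KO replicate 3.

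Among genes that link glutamate to proline, in synthesis or breakdown, 2 of 5 tested genes rose and 0 fell in edgeR (median 0.23), and 0 were lower at an unadjusted p under 0.05 or in DESeq2. Other refits did call genes of this list lower: PYCR1 in 2 of 15, both with the GC-content offset, and ALDH18A1 in 5, those with the offset, library size alone and both limma fits. Among all tested genes 3013 rose and 2959 fell. PYCR3 rose by a log2 fold change of 1.38 and ALDH4A1, which works in proline breakdown, by 0.82. PYCR1, the most abundant at 250 ± 16.4 and 230 ± 27.8 TPM, did not pass the test in edgeR (log2 fold change −0.11), but was at −0.41 with the offset (edgeR adjusted p = 0.00219, within 0.00219 to 0.866 over the refits). Of 14 glutamine-using amidotransferases and the glutaminyl-tRNA synthetase, 2 rose and 6 fell (median −0.15). The enzymes that open the hexosamine pathway were called in opposite directions. GFPT1, the more abundant, fell by 0.41 on the log2 scale (edgeR adjusted p = 0.0159), a call lost in 6 of the 15 refits, with a value of 0.04 under the GC-content offset. GFPT2 rose from 7.24 ± 1.16 to 15.9 ± 1.02 TPM (SD, n = 3; log2 fold change 1.42, edgeR adjusted p = 1.64e-05). QARS1, the glutaminyl-tRNA synthetase, fell from 205 ± 14.8 to 121 ± 10.1 TPM, and CTPS1 and CTPS2, which make CTP, fell by 0.38 and 1.01 on the log2 scale. ASNS, asparagine synthetase, did not pass the test at 112 ± 2.77 and 102 ± 7.61 TPM. Of 8 glutathione genes GSS rose (log2 fold change 0.78) and GCLC fell (−0.39), with a median of −0.16. The calls for CTPS1 and GCLC were lost in 2 and 8 of the 15 refits, and that for GATC, the other amidotransferase gene called higher, in 12.

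Of 14 tested regulators of GLUL, GLS2 or glutamine use, 4 rose and 2 fell (median 0.09). DDB1, part of the ligase that binds glutamine synthetase through CRBN, rose from 117 ± 2.58 to 171 ± 15.2 TPM (SD, n = 3), while CRBN did not pass the test at a log2 fold change of −0.02, though with the GC-content offset it was called higher at 0.42. FOXO3, a known activator of GLUL, rose by a log2 fold change of 0.48 and FOXO1 fell by 1.30 on the log2 scale, and both calls were lost in the limma fits. MYC and ATF4 did not pass the test, at log2 fold changes of 0.08 and 0.28, except ATF4 without DKK1-SE-KO replicate 3.

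GLUL is also a known beta-catenin target in liver, and DKK1 inhibits Wnt signaling upstream of beta-catenin. Of 13 such targets 6 were tested, 2 rose and 2 fell (median −0.46), and at an unadjusted p under 0.05 in edgeR 4 were lower. AXIN2 fell from 1.47 ± 0.172 to 0.570 ± 0.154 TPM (SD, n = 3), by 1.64 on the log2 scale (edgeR adjusted p = 0.000646), and ZNRF3 fell by 0.58. LEF1 rose by a log2 fold change of 1.64 from 1.71 ± 0.901 to 3.03 ± 0.374 TPM, with overlapping TPM, and TBX3 rose by 0.82. The calls for ZNRF3, LEF1 and TBX3 were lost in both limma fits. LGR5, RNF43, NKD1, SP5, CYP2E1, CYP1A2 and RHBG did not pass the filter on low counts.

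**Figure D4:**
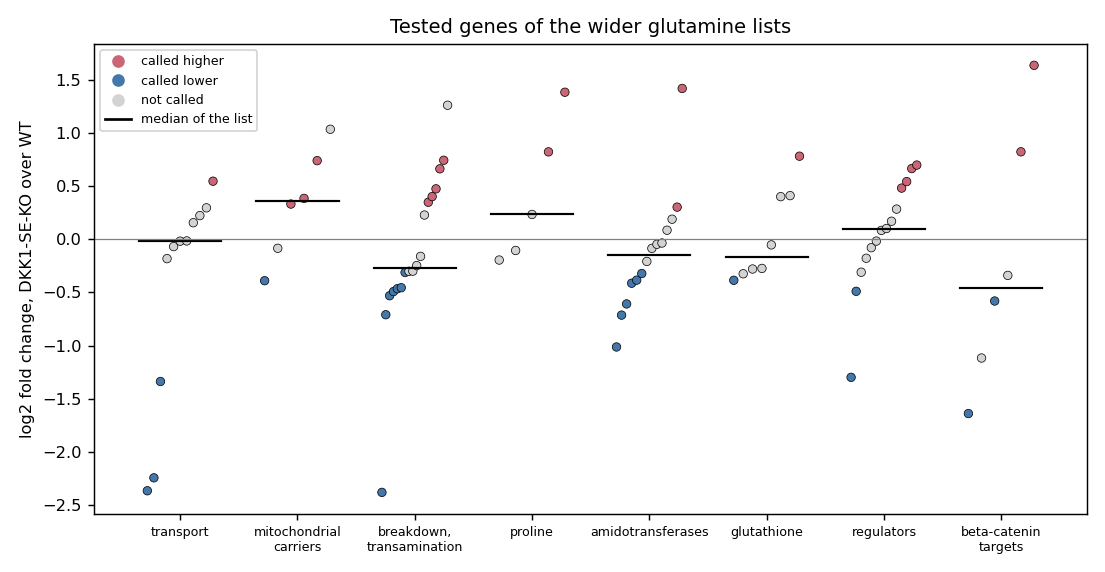
Log2 fold change of DKK1-SE-KO over WT for the 82 tested genes of the 8 lists, colored by the edgeR call at an adjusted p of 0.05, with the list median as a line. Medians run from −0.46 for the beta-catenin targets to 0.36 for the mitochondrial carriers, and most lists hold genes called in both directions.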

How the data were processed

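Total RNA from 3 WT and 3 DKK1-SE-KO cultures was sequenced. The authors deposited expected counts per gene and TPM for each of the 6 libraries, on hg38 per the submitters' processing notes; the aligner, the counter and the annotation are not given in the sources used here. Columns of the authors' own comparison (fold change, p-values, calls) and their group means were not used. Expected counts, of which 32.3% of nonzero values were not whole, were rounded and tested with edgeR 4.0.16 in R 4.3.3 (TMM, filterByExpr with a minimum count of 10, quasi-likelihood F test, Benjamini-Hochberg over 15179 genes). The SE is the absolute log2 fold change over the square root of F. The procedure was tested on simulated data. Alternatives were DESeq2 1.42.0, limma 3.58.1 on log2(TPM + 1) and log2(TPM + 0.1) with a mean TPM of at least 0.5, RLE factors, library size alone, no filter, the replicate number as a block, a GC-content offset in 40 bins, both together, and leaving out each library. Positions and GC content came from GENCODE 44, which placed 62625 listed IDs. Named genes were the 9, DKK1, up to 4 called per direction and up to 4 most abundant per list, genes tested within 1 Mb of GLUL, copies of the 9, the 5 tested genes most like GLUL, and, added after the values were seen, the 7 markers of PANC-1 and CRBN; some genes that this rule takes are not reported here. The 9 genes and the lists were chosen with earlier results of these data known. P-values measure the spread between these cultures of 1 clone and its parent line. Tables were handled with pandas 2.3.3, scipy 1.17.1 and numpy 2.4.6, and plots with matplotlib 3.10.9.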

Additional observations from a re-analysis of the deposited data

How the results depend on the processing

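GLUL stayed higher in DKK1-SE-KO in every alternative run, with log2 fold changes of 4.10 to 4.66 when libraries were left out; it was 2.98 on log2(TPM + 1), where the added 1 compresses low values. The genes called higher, 3013, numbered 1267 and 1259 in limma on log2(TPM + 1) and log2(TPM + 0.1), against 2331 and 2342 called lower; there 35.2% and 35.0% of calls were higher, beside 50.5%, and the median of all genes was −0.09 and −0.11 in place of 0.03. The wider glutamine genes called higher, 20, numbered 10 in both. At an unadjusted p under 0.05 and a log2 difference of 1.2 or more in size the counts were 753 higher and 561 lower, and 4 and 6 of the wider genes. Leaving out a library gave 2001 to 3703 genes higher, lowest without WT replicate 1, and 2055 to 3855 lower, with 14 to 27 and 13 to 27 wider genes, the 13 without WT replicate 2.

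The sample titles do not say whether the same replicate numbers mark paired samples. Correlations of deviations from the group mean were −0.12, −0.07 and −0.11 for the same numbers and −0.05 to 0.15 for different numbers. With 3 libraries per group these values cannot decide how the cultures were matched. With the replicate block 2404 genes were called higher and 2577 lower, 15 wider genes higher and 17 lower, and GLUL was at 4.48.

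With the GC-content offset, alone and with the replicate block, these log2 fold changes turned sign, those of GFPT1 and CUL4B having passed the test without it: SLC38A10 (−0.0613 and −0.0607), SLC38A9 (0.215 and 0.220), GFPT1 (0.0356 and 0.0335), ASNS (0.0446 and 0.0382), GCLM (0.105 and 0.107), CUL4B (0.0184 and 0.0184), MYC (−0.0561 and −0.0545) and CRBN (0.424 and 0.429, both called higher). MYC was also at −0.0565 and −0.0569 in the limma fits. Leaving out a library gave −0.0254 to 0.151 for MYC, lowest without DKK1-SE-KO replicate 1, −0.126 to 0.0978 for CRBN, above 0 without WT replicate 1 or DKK1-SE-KO replicate 1, and −0.207 to 0.0199 for PYCR1, highest without DKK1-SE-KO replicate 3. With the GC-content offset, alone and with the block, PYCR1 was called lower at −0.4077 and −0.4095, beside −0.1053 in edgeR without it. The cause was not tested. GLS2 and the WT level of GLUL rest on few counts, and the part of sequencing depth in this was not tested.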
